A study of Mus musculus with 16 samples.

Results

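The G2 and mitosis genes described here are 36 genes taken by gene symbol from a list. Their products carry a cell from the end of DNA replication through division. Among them are 6 mitotic kinases and cyclins, 3 chromosomal passenger proteins, 9 spindle checkpoint and kinetochore proteins and 3 partners of ubiquitin ligases. The rest are 6 kinesin motors, 5 spindle microtubule proteins, 2 cytokinesis proteins and 2 proteins of chromosome structure. All 36 were listed in each of the 16 libraries, among 16250 genes listed in any library and 13396 listed in all. The libraries hold RNA from wild-type mouse fetal brain at embryonic day 18.5, with EE hippocampus (3 libraries) and SH hippocampus (3), then EE cortex (5) and SH cortex (5). EE is the enriched environment and SH the standard habitation. Per the series title, exposure took place before birth. Levels are FPKM, which count fragments per kilobase of a transcript and correct for library size.

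In G2 the cell checks that its DNA has been copied, and cyclin B with the kinase Cdk1 then starts mitosis. Kinetochores join chromosomes to the spindle, a checkpoint holds the cell until all are attached, and the anaphase-promoting complex with Cdc20 then degrades cyclin B and ends the block. Transcripts of this programme build up in cycling cells before division and are low in cells that have left the cycle, such as neurons, so that in late fetal forebrain their main known sources are radial glia, the stem cells along the ventricle, and intermediate progenitors, their dividing daughters.

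The libraries form 3 sets with separate gene lists, namely hippocampus, cortex replicates 1 to 3 and cortex replicates 4 and 5, and the labels name no fetus or litter. The p-values therefore measure the spread between libraries, which may share a litter. Cortex replicates 4 and 5 are an exception, as their fit gave nearly the same SE to genes of unlike spread. The p-values of that fit do not measure the spread of the single gene. Whole reads recovered from the steps of the FPKM values ran from 11782686 to 21436707 per library, and a member held from 43 to 3362 reads with a median of 263.5. Cortex SH replicate 3 stood apart, with a summed FPKM of 511438 against 339726 to 396658 in the other 15 libraries and with long transcripts low. The titles alone separate the tissues, so a defining marker was checked. Prox1, a transcription factor of dentate granule cells, measured 11.1, 13.3 and 5.67 FPKM in EE hippocampus and 10.3, 21.5 and 11.2 FPKM in SH hippocampus, against 3.08, 2.46 and 2.11 FPKM in EE cortex and 2.91, 2.39 and 1.57 FPKM in SH cortex of replicates 1 to 3, with no overlap. Hippocampus EE replicate 3 was the lowest of the hippocampus libraries in this marker.

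Promoters of such genes are known to carry a CHR element, bound by the MuvB core of the DREAM and B-Myb complexes, and CCAAT boxes, bound by NF-Y. The 5 promoters shown were chosen for holding a CHR match, in order of the p between tissues, and these genes are also the 5 members with the smallest p. They run from 130 bases before to 50 bases after the start of transcription on build GRCm38.p6 (RefSeq), and matches to TTTGAA or TTCGAA (CHR) and to CCAAT on either strand are in capitals. They lie on the minus strand at chr8:22185770-22185949 (Ckap2), chr4:118437294-118437473 (Cdc20), chr2:172370521-172370700 (Aurka) and chr4:124936868-124937047 (Cdca8), and on the plus strand at chr7:80294321-80294500 (Prc1).
Ckap2: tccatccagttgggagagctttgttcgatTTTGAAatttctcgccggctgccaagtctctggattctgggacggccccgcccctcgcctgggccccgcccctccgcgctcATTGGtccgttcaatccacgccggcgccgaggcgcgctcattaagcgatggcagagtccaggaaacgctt
Cdc20: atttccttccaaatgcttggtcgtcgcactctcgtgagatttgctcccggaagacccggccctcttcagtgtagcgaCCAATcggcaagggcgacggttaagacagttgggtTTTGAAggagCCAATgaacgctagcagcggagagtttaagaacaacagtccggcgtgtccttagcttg
Aurka: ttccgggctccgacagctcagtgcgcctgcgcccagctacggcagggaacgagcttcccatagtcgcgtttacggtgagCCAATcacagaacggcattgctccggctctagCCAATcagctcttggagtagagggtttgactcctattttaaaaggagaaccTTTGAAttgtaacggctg
Cdca8: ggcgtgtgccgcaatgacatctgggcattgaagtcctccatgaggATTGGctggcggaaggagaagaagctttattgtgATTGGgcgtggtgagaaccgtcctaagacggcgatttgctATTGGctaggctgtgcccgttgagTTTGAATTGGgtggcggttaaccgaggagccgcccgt
Prc1: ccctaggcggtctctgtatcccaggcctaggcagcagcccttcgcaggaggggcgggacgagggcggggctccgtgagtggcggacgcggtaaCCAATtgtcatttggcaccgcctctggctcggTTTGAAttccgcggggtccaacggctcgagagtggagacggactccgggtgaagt

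In Cdc20 a CCAAT box began 53 bases and the CHR match 18 bases before the start of transcription, and in Prc1 these distances were 37 and 5 bases. In Aurka the CHR match lay 33 bases after the start, downstream of CCAAT boxes at 51 and 19 bases before it. In Cdca8 the CHR match at 14 bases after the start overlapped the last of 4 CCAAT matches. In Ckap2 the order was reversed, with the CHR match 101 bases and the CCAAT box 20 bases before the start. Over the 300 bases of the RefSeq entries, 32 members had 34 promoters, of which 28 (82.4%) held a CHR match, against 19.2% of 32851 promoters of all genes. A CCAAT match stood in 26 of them (76.5%), against 37.4% of all, and both stood in 24 (70.6%), against 7.52% of all. Nuf2, Knstrn, Nusap1 and Birc5 held neither in this window, and Tpx2, Kif20a, Aurkb and Ccna2 had no entry. Of 49 promoters of other G2 and mitosis genes 65.3% held a CHR match, of 28 promoters of S phase genes 14.3%, and of 14 promoters of cell cycle inhibitors and G1 cyclins 0. The letters are a description of these windows, and binding was not measured.

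The first comparison asked how the members differ between hippocampus and cortex of replicates 1 to 3. Their transcripts were higher in hippocampus. All 36 had a positive log2 difference (60.4% of all genes had one), from 0.40 for Spc25 and Ndc80 to 1.10 for Mki67, with a median of 0.70 against 0.09 over all genes. With limma on log2(FPKM + 1) and a Benjamini-Hochberg adjusted p of at most 0.05 over 13158 genes, 34 of 36 members passed as higher and 0 as lower, against 24.6% of all genes passing as higher and 35.4% passing in either direction. In 20 of 36 members all 6 hippocampus libraries stood above all 6 cortex libraries, which held for 14.9% of all genes. Summed over the 36 members, the level was 318.3 ± 64.6 FPKM in hippocampus and 180.1 ± 28.0 FPKM in cortex (SD, n = 6 each). In bulk RNA, fewer cells of a type and less RNA per cell cannot be told apart.

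The counts passing, of members and of all genes alike, rested on which libraries entered. With EE libraries alone 30 of 36 members passed as higher, against 24.1% of all genes. With SH libraries alone 3 members passed as higher, Cenpf, Mki67 and Prc1, against 2.28% of all genes, although all 36 stayed positive in both fits with medians of 0.67 and 0.70. Without further scaling 3233 genes passed as higher and 1428 as lower, and with scaling by median of ratios 2289 and 2108, as the median of all genes moved to -0.01. Members then had a median of 0.60, and 31 of 36 passed as higher.

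**Figure D1:**
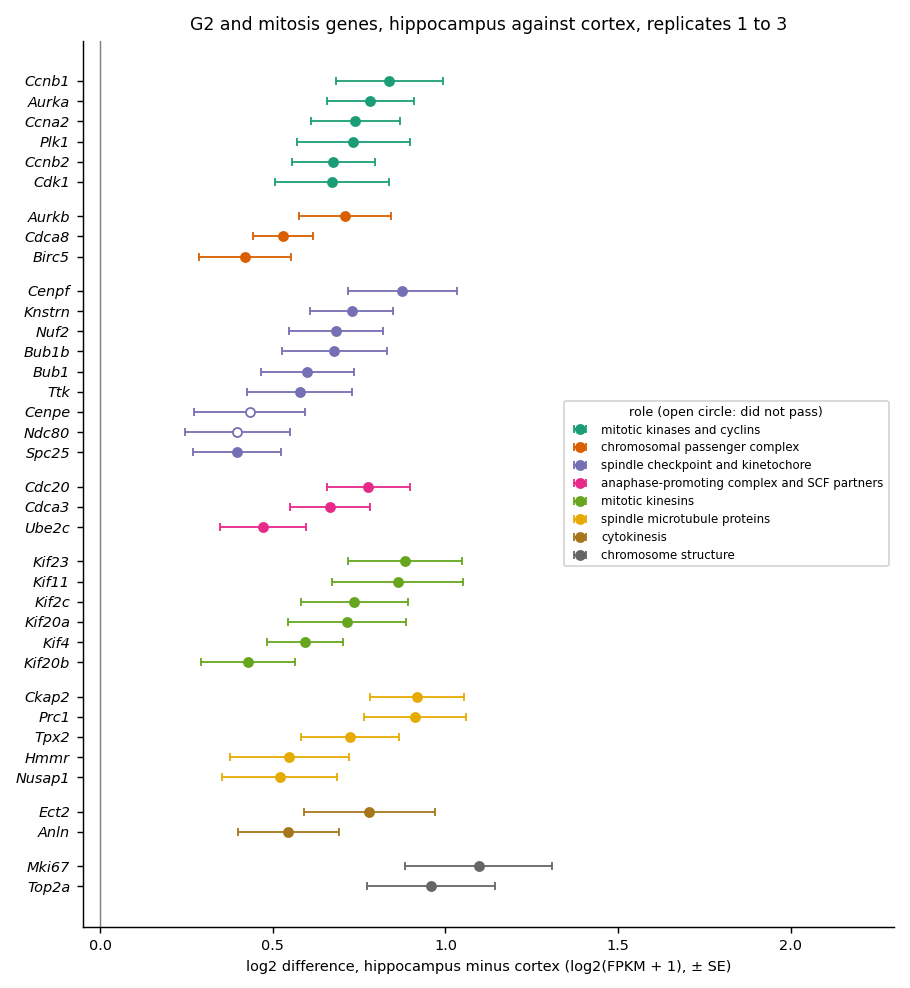
Log2 difference of each member, hippocampus minus cortex of replicates 1 to 3, on the log2(FPKM + 1) scale, with bars of 1 SE (n = 6 libraries each) and members grouped by role. All 36 points lie right of 0, and the open circles of Cenpe and Ndc80 mark the 2 that did not pass.

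Among the kinases and cyclins of mitotic entry all 6 passed as higher in hippocampus, with a median log2 difference of 0.74. In the sentences on single members, values run in order of replicate, 1 to 3 for hippocampus and 1 to 5 for cortex, and the difference uses cortex replicates 1 to 3. Cdk1 is the kinase that drives cells into mitosis. Cdk1 measured 12.6, 14.1 and 10.9 FPKM in EE hippocampus and 19.9, 8.65 and 14.7 FPKM in SH hippocampus, against 8.54, 6.39, 5.74, 5.55 and 7.42 FPKM in EE cortex and 9.10, 8.16, 9.78, 5.83 and 7.35 FPKM in SH cortex. Hippocampus SH replicate 2 lay inside the cortex range and SH replicate 1 far above it, with a difference of 0.67 ± 0.17 (SE; limma, adjusted p = 0.00757). Ccnb1 encodes cyclin B1, the partner of Cdk1. Ccnb1 measured 10.6, 11.2 and 8.54 FPKM in EE hippocampus and 15.1, 9.41 and 12.4 FPKM in SH hippocampus, against 6.64, 6.80, 4.20, 4.36 and 7.62 FPKM in EE cortex and 7.14, 6.10, 4.18, 6.80 and 6.73 FPKM in SH cortex. The tissues did not overlap, with a difference of 0.84 ± 0.15 (SE; limma, adjusted p = 0.00134). Aurka encodes a kinase that matures centrosomes and builds spindle poles. Aurka measured 7.50, 7.31 and 5.08 FPKM in EE hippocampus and 10.9, 6.62 and 8.81 FPKM in SH hippocampus, against 3.27, 3.85, 2.75, 2.73 and 3.92 FPKM in EE cortex and 4.44, 5.20, 4.64, 5.06 and 4.78 FPKM in SH cortex. Hippocampus EE replicate 3 fell just under the highest cortex library of replicates 1 to 3, SH replicate 2, and the difference was 0.78 ± 0.13 (SE; limma, adjusted p = 0.000561). Plk1 encodes polo-like kinase, which acts from centrosomes to cytokinesis. Plk1 measured 9.80, 10.3 and 6.51 FPKM in EE hippocampus and 12.4, 7.86 and 11.6 FPKM in SH hippocampus, against 5.27, 6.21, 3.21, 3.73 and 5.91 FPKM in EE cortex and 6.76, 6.61, 4.80, 6.66 and 7.40 FPKM in SH cortex. Its lowest hippocampus library, EE replicate 3, lay under cortex SH replicates 1 and 2, and the difference was 0.73 ± 0.16 (SE; limma, adjusted p = 0.00422). The cyclin genes Ccna2 (11.6 to 18.7 FPKM in hippocampus against 6.29 to 10.1 FPKM in cortex) and Ccnb2 (10.9 to 17.1 FPKM in hippocampus against 5.84 to 9.19 FPKM in cortex) did not overlap between tissues.

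**Figure D2:**
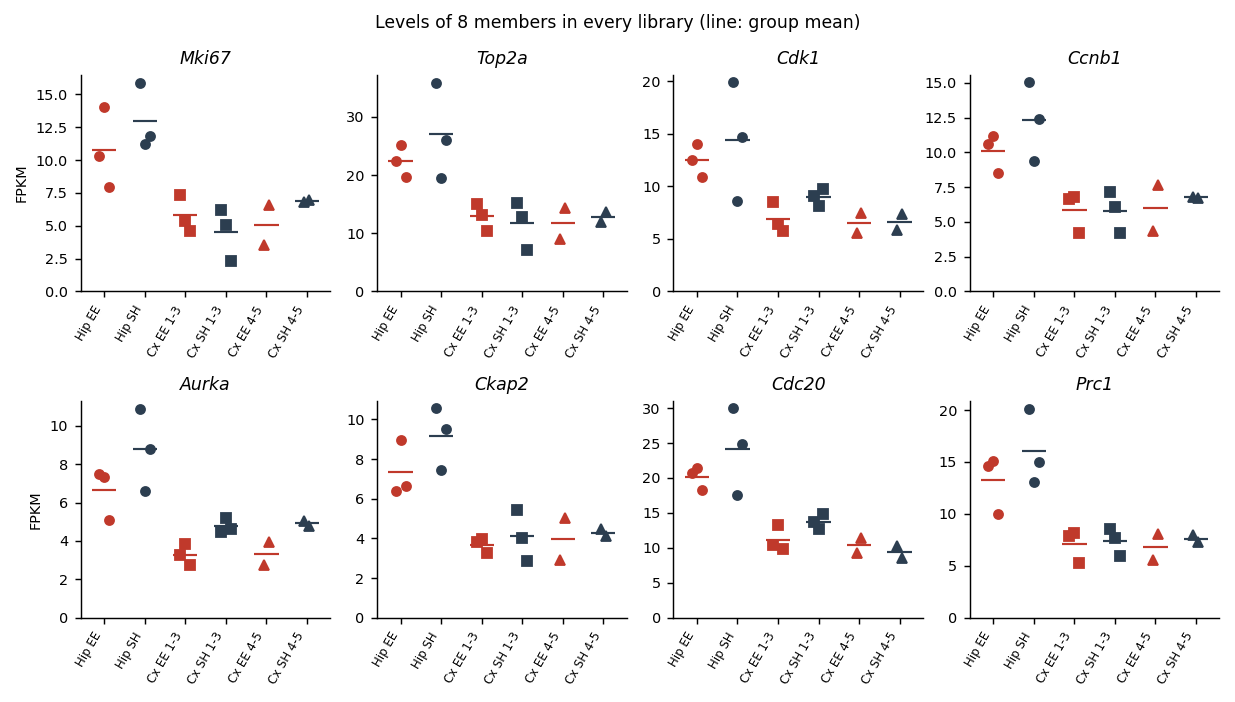
FPKM of 8 members in every library, by tissue, housing and set of replicates, with a line at each group mean. Both hippocampus groups lie above the cortex groups on average, and hippocampus SH replicate 1 is the highest point in all 8 panels.

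The chromosomal passenger complex corrects faulty attachments of chromosomes and later acts in cytokinesis. All 3 members passed as higher, with a median of 0.53. Cdca8 encodes borealin, which holds the complex together. Cdca8 measured 14.5, 15.5 and 12.4 FPKM in EE hippocampus and 16.7, 13.7 and 14.8 FPKM in SH hippocampus, against 9.39, 9.68, 8.10, 8.77 and 10.1 FPKM in EE cortex and 10.3, 9.91, 11.5, 7.59 and 7.93 FPKM in SH cortex. The tissues did not overlap, and the difference of 0.53 ± 0.09 had the smallest SE of the 36 (limma, adjusted p = 0.000573). Birc5 encodes survivin, which docks the complex on chromosomes. Birc5 measured 4.18, 5.21 and 3.33 FPKM in EE hippocampus and 4.92, 3.59 and 4.47 FPKM in SH hippocampus, against 2.59, 2.10, 1.91, 2.35 and 3.16 FPKM in EE cortex and 3.95, 3.58, 3.92, 2.82 and 2.92 FPKM in SH cortex. Hippocampus EE replicate 3 lay under all 3 SH cortex libraries of replicates 1 to 3, and the difference was 0.42 ± 0.13 (SE; limma, adjusted p = 0.0268). Aurkb, the kinase of the complex, ran from 5.20 to 11.2 FPKM in hippocampus against 3.24 to 5.72 FPKM in cortex, with a difference of 0.71.

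Of the 9 spindle checkpoint and kinetochore genes 7 passed as higher, and the median was 0.60. Knstrn encodes a small protein that supports chromosome alignment. Knstrn measured 6.48, 7.98 and 5.77 FPKM in EE hippocampus and 9.03, 5.49 and 7.57 FPKM in SH hippocampus, against 4.10, 3.16, 3.32, 3.34 and 4.68 FPKM in EE cortex and 4.69, 3.99, 3.71, 3.37 and 3.74 FPKM in SH cortex. The tissues did not overlap, with a difference of 0.73 ± 0.12 (SE; limma, adjusted p = 0.000627). Nuf2, Spc25 and Ndc80 belong to the Ndc80 complex, the kinetochore's grip on microtubules. Nuf2 had a difference of 0.68 with no overlap, while Spc25 had 0.40 (adjusted p = 0.0282) and Ndc80 itself 0.40 (adjusted p = 0.0578), in the same limma fit. Ndc80 ran from 2.12 to 5.33 FPKM in hippocampus against 1.99 to 3.60 FPKM in cortex. Cenpf, a protein of the outer kinetochore and one of the longest transcripts, ran from 3.18 to 6.23 FPKM in hippocampus against 1.12 to 2.68 FPKM in cortex with a difference of 0.88. Cenpe, the kinetochore motor, ran from 1.68 to 3.10 FPKM in hippocampus against 0.697 to 2.01 FPKM in cortex and missed the threshold (difference 0.43, limma adjusted p = 0.0514). The checkpoint kinase genes Bub1, Bub1b and Ttk had differences of 0.60, 0.68 and 0.58.

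All 3 ubiquitin ligase partners passed as higher, with a median of 0.67. Cdc20 encodes the activator of the anaphase-promoting complex. Cdc20 measured 20.7, 21.5 and 18.3 FPKM in EE hippocampus and 29.97, 17.6 and 24.9 FPKM in SH hippocampus, against 10.4, 13.2, 9.77, 9.25 and 11.5 FPKM in EE cortex and 13.7, 12.7, 14.8, 10.3 and 8.50 FPKM in SH cortex. The tissues did not overlap, with a difference of 0.78 ± 0.12 (SE; limma, adjusted p = 0.000417). Cdca3 encodes a protein that helps remove an inhibitor of mitotic entry. Cdca3 measured 13.9, 14.1 and 10.6 FPKM in EE hippocampus and 15.7, 10.9 and 13.5 FPKM in SH hippocampus, against 7.02, 7.17, 5.84, 6.14 and 7.05 FPKM in EE cortex and 8.96, 8.62, 10.1, 6.72 and 7.49 FPKM in SH cortex. Every hippocampus library stood above every cortex library, and the difference was 0.67 ± 0.12 (SE; limma, adjusted p = 0.000956). Ube2c, the ubiquitin-conjugating enzyme of the complex, ran from 15.9 to 24.2 FPKM in hippocampus against 10.2 to 16.7 FPKM in cortex and differed by 0.47.

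The 6 kinesin genes all passed as higher, with a median of 0.73. Kif23, a motor of the central spindle, ran from 4.68 to 8.86 FPKM in hippocampus against 1.92 to 4.12 FPKM in cortex, and Kif11, which pushes spindle poles apart, from 6.53 to 12.8 FPKM in hippocampus against 2.44 to 5.90 FPKM in cortex. Their differences were 0.88 and 0.86, without overlap. Kif2c, a microtubule depolymerase, Kif20a, a motor of cytokinesis, and Kif4, which acts on chromosomes and the midzone, had differences of 0.74, 0.71 and 0.59. Kif20b was the lowest member in level, at 1.13 to 2.20 FPKM in hippocampus against 0.596 to 1.34 FPKM in cortex, with a difference of 0.43. The 1 added to FPKM before taking log2 understates the differences of such low genes.

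All 5 spindle microtubule genes passed as higher, with a median of 0.72. Ckap2 encodes a microtubule nucleator of the spindle and had the smallest p of the members. Ckap2 measured 6.38, 8.99 and 6.62 FPKM in EE hippocampus and 10.6, 7.48 and 9.53 FPKM in SH hippocampus, against 3.82, 3.95, 3.27, 2.89 and 5.01 FPKM in EE cortex and 5.44, 4.02, 2.87, 4.46 and 4.13 FPKM in SH cortex. The tissues did not overlap, with a difference of 0.92 ± 0.14 (SE; limma, adjusted p = 0.000326), which is 1.89-fold on the FPKM + 1 scale. Prc1 encodes the protein that bundles microtubules of the midzone. Prc1 measured 14.6, 15.1 and 9.96 FPKM in EE hippocampus and 20.1, 13.1 and 14.97 FPKM in SH hippocampus, against 7.91, 8.17, 5.26, 5.56 and 8.03 FPKM in EE cortex and 8.56, 7.71, 5.96, 7.96 and 7.29 FPKM in SH cortex. Here too the tissues stood apart, with a difference of 0.91 ± 0.15 (SE; limma, adjusted p = 0.000594). Tpx2, the activator of Aurka, had a difference of 0.72, and Hmmr and Nusap1, which bind spindle microtubules, had 0.55 and 0.52 with overlap.

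Both cytokinesis genes and both genes of chromosome structure passed as higher. Mki67 encodes Ki-67, the coat of mitotic chromosomes used as a stain for cycling cells. Mki67 measured 10.3, 14.1 and 7.98 FPKM in EE hippocampus and 15.8, 11.2 and 11.8 FPKM in SH hippocampus, against 7.37, 5.37, 4.60, 3.51 and 6.56 FPKM in EE cortex and 6.16, 5.04, 2.27, 6.79 and 6.97 FPKM in SH cortex. Its difference of 1.10 ± 0.21 was the largest of the members at 2.14-fold, without overlap (SE; limma, adjusted p = 0.00185). Top2a encodes the topoisomerase that untangles sister chromatids. Top2a measured 22.4, 25.2 and 19.7 FPKM in EE hippocampus and 35.9, 19.5 and 26.1 FPKM in SH hippocampus, against 15.1, 13.2, 10.4, 9.05 and 14.4 FPKM in EE cortex and 15.2, 12.8, 7.19, 11.99 and 13.6 FPKM in SH cortex. The tissues did not overlap, with a difference of 0.96 ± 0.19 (SE; limma, adjusted p = 0.00186). For both genes the lowest of the 16 values was that of cortex SH replicate 3, and without this library the largest member difference was 0.91 and 34 of 36 members passed as higher, against 28.5% of all genes. Anln encodes anillin, a scaffold of the cleavage furrow. Anln measured 1.98, 2.25 and 1.69 FPKM in EE hippocampus and 3.72, 2.18 and 3.24 FPKM in SH hippocampus, against 1.65, 1.38, 0.936, 0.913 and 1.40 FPKM in EE cortex and 1.86, 1.66, 0.855, 2.23 and 1.85 FPKM in SH cortex. Hippocampus EE replicate 3 lay under cortex SH replicate 1, and the difference was 0.55 ± 0.15 (SE; limma, adjusted p = 0.0121). Ect2, which activates the furrow, had a difference of 0.78 without overlap.

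Other cell cycle genes were also higher in hippocampus. In the same fit 49 of 60 other G2 and mitosis genes passed as higher and 1 as lower (median 0.60), among them Kifc1 at 0.76, Psrc1 at 0.79 and Nek2 at 1.02. S phase genes passed as higher in 18 of 31 and as lower in 0 (median 0.42), led by Mcm2, a subunit of the replicative helicase, at 0.79 (limma, adjusted p = 0.00033). Of 18 cell cycle transcription regulators 10 passed as higher and 0 as lower (median 0.33). Foxm1, a transcription factor that binds with MuvB at CHR promoters, measured 6.91, 7.94 and 5.33 FPKM in EE hippocampus and 8.32, 6.12 and 6.18 FPKM in SH hippocampus, against 3.86, 3.34 and 3.49 FPKM in EE cortex and 4.20, 3.64 and 1.88 FPKM in SH cortex of replicates 1 to 3. It did not overlap between tissues and differed by 0.84 (limma, adjusted p = 0.00103). Cell cycle inhibitors and G1 cyclins passed as higher in 8 and as lower in 2 of 14 (median 0.33), with Cdk2 at 0.83 and the inhibitor Cdkn1b at 0.57.

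Most radial glia and intermediate progenitor markers were higher in hippocampus too. Radial glia markers passed as higher in 13 of 15 and as lower in 0 (median 0.86), with a summed level of 1414 to 2163 FPKM in hippocampus against 1176 to 1835 FPKM in cortex. Intermediate progenitor markers passed as higher in 8 of 9 (median 1.13), and their sum of 144.3 to 239.3 FPKM in hippocampus did not overlap the 74.8 to 91.0 FPKM in cortex. Eomes, the defining transcription factor of these cells, measured 22.9, 26.7 and 19.4 FPKM in EE hippocampus and 32.03, 23.3 and 29.1 FPKM in SH hippocampus, against 5.67, 6.61 and 4.13 FPKM in EE cortex and 6.72, 5.58 and 4.27 FPKM in SH cortex. Markers of excitatory projection neurons passed as lower in 8 and as higher in 1 of 15. Those of ganglionic eminence progenitors and interneurons passed as lower in 9 and as higher in 1 of 10. Oligodendrocyte precursor markers passed as lower in 2 and as higher in 0 of 7 (median -0.16). The part of these cell types in the member differences was not tested.

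Choroid plexus markers were uneven among the hippocampus libraries. Ttr, the transthyretin gene and the defining choroid plexus transcript, measured 4989, 10300 and 33.6 FPKM in EE hippocampus and 16656, 37.9 and 143.87 FPKM in SH hippocampus, against 77.5, 243.58 and 8.30 FPKM in EE cortex and 117.44, 11.1 and 280.68 FPKM in SH cortex of replicates 1 to 3. Summed over 10 choroid plexus markers, hippocampus held 45.7 to 17205 FPKM and cortex 15.7 to 296.5 FPKM, with no marker at 0 in any library and 3 of 10 passing as higher. Without the 3 hippocampus libraries over 1000 FPKM of Ttr, all 36 members stayed positive with a median of 0.49, and 16 of 36 passed as higher, against 10.4% of all genes. Mki67 then differed by 0.94, Ckap2 by 0.84 and Birc5 by 0.21.

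In hippocampus most members shared the same highest and lowest libraries. Hippocampus SH replicate 1 was the highest of 6 in 35 of 36 members, against 29.0% of all genes, and its summed member level was 425.9 FPKM. Hippocampus EE replicate 3 was the lowest in 25 of 36, against 20.5% of all genes, with a sum of 242.8 FPKM. Between them lay EE replicate 2 (339.6 FPKM), SH replicate 3 (332.6 FPKM), EE replicate 1 (301.7 FPKM) and SH replicate 2 (267.0 FPKM). The libraries at both ends also stood at the ends for Ttr, at 16656 FPKM in SH replicate 1 and 33.6 FPKM in EE replicate 3. SH replicate 2 held nearly as little Ttr, at 37.9 FPKM. Inside the ends the orders differed, with 143.9 FPKM of Ttr in SH replicate 3 and 4989 FPKM in EE replicate 1. The intermediate progenitor markers of EE replicate 3 lay 0.46 under the set mean on the log2(FPKM + 1) scale. In SH replicate 2, radial glia markers lay 0.36 under the set mean and intermediate progenitor markers 0.12 above it.

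**Figure D3:**
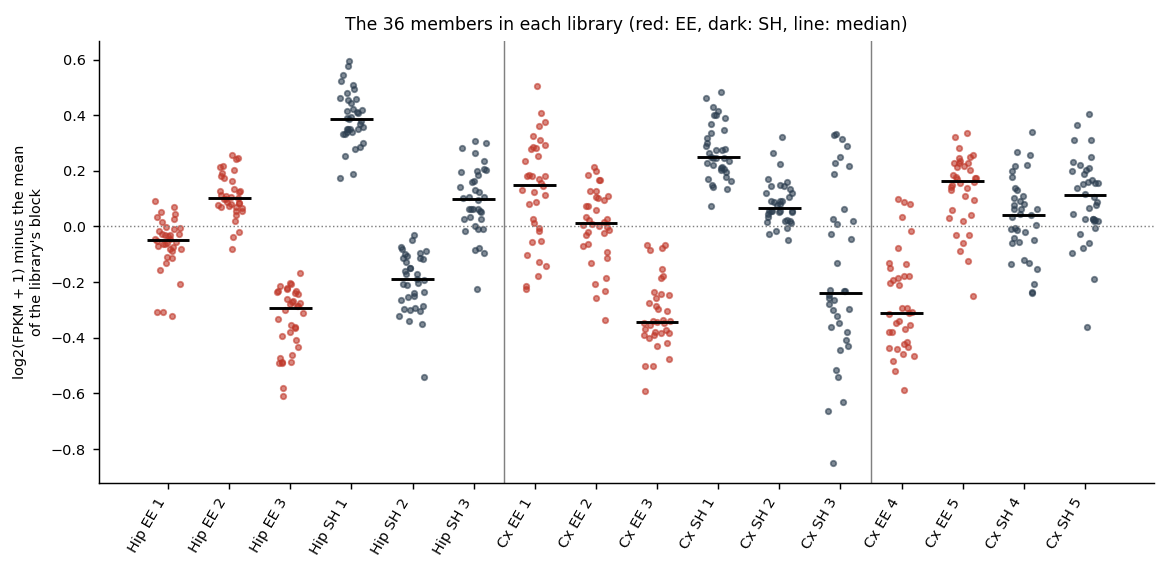
Each point is 1 of the 36 members in 1 library, as log2(FPKM + 1) minus the mean of the library's own set of replicates, with red for EE, dark for SH and a line at the median. The points of hippocampus SH replicate 1 lie above 0 and those of hippocampus EE replicate 3 and cortex EE replicate 3 below it, while cortex SH replicate 3 spreads widely.

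In cortex replicates 1 to 3, SH replicate 1 was the highest in 22 of 35 tested members, against 14.1% of all genes, and EE replicate 3 the lowest in 20, against 12.5%. Cortex SH replicate 3 split the members by transcript length. Its 12 longest members had a median of -0.44 against the set mean and its 12 shortest 0.11, and the Spearman correlation of this deviation with length was -0.75 over the 36 members, as a description, against -0.76 over all genes of the library. Mki67, Cenpf and Cenpe were among its lowest members and Cdca3, Birc5 and Ube2c among its highest. In cortex EE replicate 3 both the 12 longest (-0.24) and the 12 shortest (-0.35) lay under the set mean. In cortex replicates 4 and 5, EE replicate 4 was the lowest of 4 libraries in 28 of 36 members, against 31.8% of all genes, and EE replicate 5 the highest in 21, against 26.7%.

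**Figure D4:**
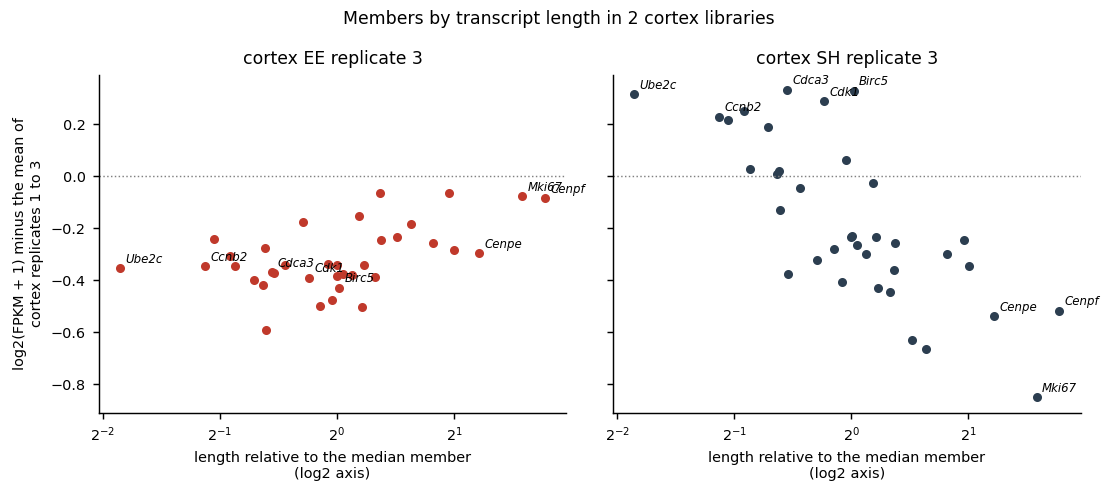
Deviation of each member from the mean of cortex replicates 1 to 3 on the log2(FPKM + 1) scale, against its transcript length relative to the median member on a log2 axis, for cortex EE replicate 3 and cortex SH replicate 3. In SH replicate 3 the points descend with length, and in EE replicate 3 long and short members alike lie below 0.

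The second comparison asked how the members differ between EE and SH within each tissue. No member passed in any of the 4 limma fits, where 0.00798% of 12539 genes passed in cortex with all 5 replicates, 0% in cortex replicates 1 to 3, 3.46% of 12576 in cortex replicates 4 and 5, and 0% in hippocampus. At an unadjusted p under 0.05 there were 5 of 36 members in cortex (7.45% of all genes), 5 of 35 in replicates 1 to 3 (9.29%), 3 of 36 in replicates 4 and 5 (17.1%) and 0 in hippocampus (3.77%). With limma-voom, run on the recovered reads, 0 members passed in each fit as well. Of all genes, 1 of 12527 then passed in cortex and 0 of 12883 in replicates 1 to 3. In replicates 4 and 5 it was 426 of 12567, and in hippocampus 0 of 13338.

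The members leaned below SH in EE hippocampus without passing. The summed member level was 294.7 ± 48.8 FPKM in EE hippocampus (SD, n = 3) and 341.8 ± 79.9 FPKM in SH hippocampus (SD, n = 3), a difference within the spread. All 36 log2 differences were negative, against 52.8% of all genes, but no member separated the 3 EE from the 3 SH libraries, where 7.32% of all genes had EE wholly lower. Anln differed by -0.43, Aurka by -0.35, Aurkb by -0.33 and Ckap2 by -0.29, and the smallest adjusted p of the members was 0.9996 (limma). Of the EE libraries, replicate 1 lay under the SH mean in 35 members, replicate 2 in 19 and replicate 3 in 36. The median of -0.22 rested on single libraries: it was -0.04 without SH replicate 1, with 24 members negative, -0.07 without EE replicate 3, with 28 negative, and -0.36 without SH replicate 2. Some marker lists also lay wholly on one side, with 0 genes passing. All 9 intermediate progenitor markers tested (median -0.25) and all 8 of the dentate granule lineage (median -0.19) were negative. All 10 choroid plexus (median 0.98), 10 microglia (median 0.25) and 5 erythroid markers (median 0.35) were positive.

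In cortex 30 of 36 members were negative in EE against SH, against 54% of all genes, with a median of -0.10 against -0.02. Aurka averaged 3.30 ± 0.573 FPKM in EE cortex (SD, n = 5) and 4.82 ± 0.305 FPKM in SH cortex (SD, n = 5), and it was the 1 member whose 5 EE libraries all lay under the 5 SH libraries, which held for 2.02% of all genes. Its difference of -0.45 ± 0.11 did not pass (SE; limma, adjusted p = 0.321). Birc5 averaged 2.42 ± 0.486 FPKM in EE cortex and 3.44 ± 0.541 FPKM in SH cortex (SD, n = 5 each), with a difference of -0.38 ± 0.13 (SE; limma, adjusted p = 0.508). Cdca3, Ndc80 and Kif2c had differences of -0.29, -0.35 and -0.32, while Mki67 and Top2a had 0.04 and 0.04. The median was -0.02 without SH replicate 1, -0.03 without EE replicate 3 and -0.18 without SH replicate 3. S phase genes were negative in 27 of 31 (median -0.18) and other G2 and mitosis genes in 42 of 54 (median -0.13), with 0 passing.

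The sets of cortex libraries were also fitted apart. In replicates 1 to 3, Birc5 differed by -0.59, Aurka by -0.43, Cdca3 by -0.42 and Ube2c by -0.37, the smallest adjusted p being 0.414 (limma). Ccnb2, Aurka, Birc5, Cdca8, Ube2c and Cdca3 had all 3 EE under all 3 SH libraries, 6 of 35 members tested against 18.6% of all genes, and Mki67 had a positive difference of 0.36. Kif20b stayed under the mean of 1 FPKM and was not tested there. The median of -0.10 became -0.25 without SH replicate 3, 0.02 without SH replicate 1 and 0.04 without EE replicate 3. When each library's trend on transcript length and GC content was removed, 32 of 35 were negative, the highest difference was 0.11, and Birc5 had -0.61 while Aurka and Cdca3 had -0.20 each.

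In replicates 4 and 5, with 2 libraries per housing, 28 of 36 were negative, against 51.9% of all genes, with a median of -0.14. Anln differed by -0.50, Plk1 by -0.49, Aurka by -0.47 and Mki67 by -0.43, the smallest adjusted p being 0.204 (limma). Ube2c and Cdca8 were positive at 0.37 and 0.25. In these 2 of 36 members both EE lay above both SH libraries, against 21.7% of all genes. In 8 of 36 members both EE lay under both SH libraries, against 24.9% of all genes. The EE libraries differed most from each other, with sums of 142.3 FPKM in replicate 4 and 196.7 FPKM in replicate 5, against 177.0 and 183.8 FPKM in SH. Without EE replicate 5 the median was -0.38 and 9 members passed as lower, against 8.38% of all genes, and without EE replicate 4 it was 0.11 and 0 passed, where the lone EE library is assumed to vary like the SH libraries. Ttr was 689.3 FPKM in EE replicate 4 and 28.9 to 35.8 FPKM in the other 3 libraries of this set, and its part in the low members of EE replicate 4 was not tested.

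**Figure D5:**
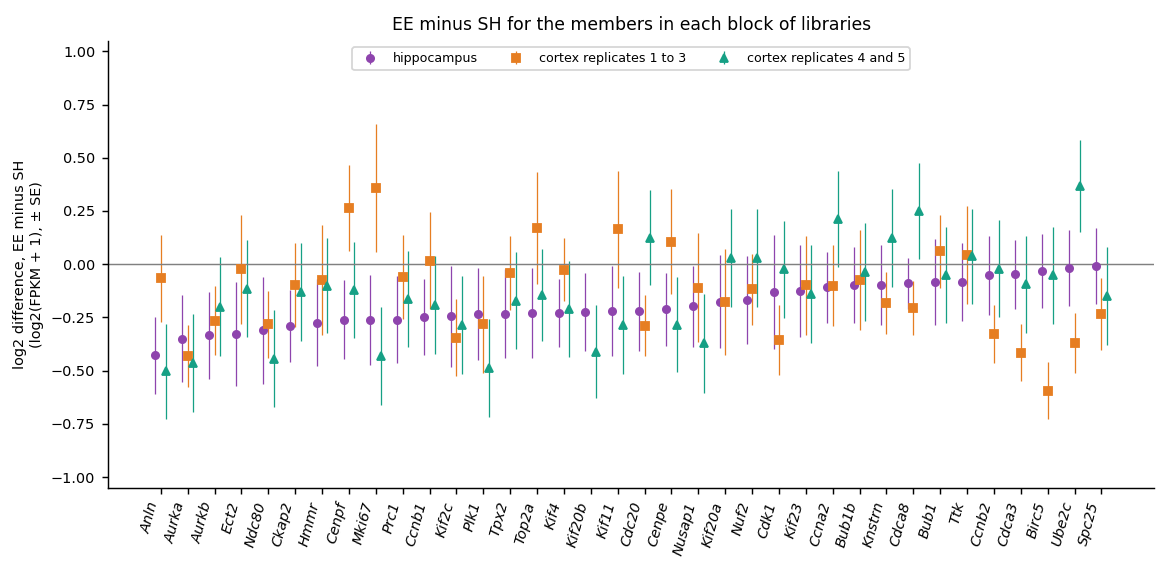
Log2 difference of each member, EE minus SH, with bars of 1 SE on the log2(FPKM + 1) scale, in hippocampus, cortex replicates 1 to 3 and cortex replicates 4 and 5, ordered by the hippocampus value. The hippocampus points all lie under 0. Ube2c and Mki67 have cortex values of opposite sign in the 2 sets. They are 0.37 and -0.43 in replicates 4 and 5, and -0.37 and 0.36 in replicates 1 to 3. Without cortex SH replicate 3, where long transcripts were low, the highest member difference in replicates 1 to 3 was 0.07 (not shown).

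Tests of the EE effect between tissues and between cortex sets called 0 members, where 0 of 13158 and 0 of 12539 genes passed. For hippocampus minus cortex of replicates 1 to 3 the smallest adjusted p was 0.495 (limma), with Birc5 at 0.56 ± 0.22 (SE) and Cenpf at -0.53, and the median was -0.06. For replicates 4 and 5 minus 1 to 3 the smallest was 0.251 (limma). Ube2c was at 0.74 ± 0.23 (SE) and Mki67 at -0.79, and the median was -0.03. Without cortex SH replicate 3, where long transcripts were low, members ran from -0.46 to 0.67 in this comparison. Over the 3 sets, 20 of 35 members had negative differences in each, against 14.3% of all genes. Most members shared their highest and lowest libraries, so they are not separate observations. Leaving out 1 library turned the member median positive in both cortex sets. It was 0.04 in replicates 1 to 3 without EE replicate 3 and 0.11 in replicates 4 and 5 without EE replicate 4. Aurka, Aurkb, Ndc80 and Kif2c lay under the SH mean of their set in all 8 EE libraries of hippocampus and cortex replicates, 4 of 36 members against 4.52% of all genes.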

How the data were processed

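Per the submitters' processing notes, the genome build was mm10, and the tools were DESeq2, edgeR, StringTie 1.3.4d, HISAT2 2.0.4 and cutadapt 1.9, with no role or order given. Per the labels' protocols, Trizol RNA went into NEBNext Ultra libraries. The authors deposited 1 table of FPKM per library, and genes that a table leaves out count as missing there.

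Limma 3.58.1 in R 4.3.3 (lmFit, eBayes with trend, two-sided) was run on log2(FPKM + 1) for the genes present in every library compared whose mean FPKM reached 1, adjusted by Benjamini-Hochberg over all genes, with a threshold of 0.05. Hippocampus against cortex had a term for housing, and cortex EE against SH a term for the set of replicates. Whole reads were recovered from the FPKM steps at a tolerance of 0.0005 reads for 99.93 to 99.96% of genes, by a method checked on simulated data. Members and lists were chosen with earlier results of these data known. Values in every library are given for Mki67, Top2a, Cdk1, Ccnb1, Aurka, the 6 members of smallest p between tissues and the 3 of smallest p per EE comparison, and other lists name their genes of smallest p. Alternatives were another pseudocount, filters, scalings, limma-voom, a trend on length and GC, a replicate block and leaving out libraries. In the last group, EE or SH libraries alone and libraries of low Ttr were chosen after seeing the data. 1 marker of the tissue check is not reported here.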

Additional observations from a re-analysis of the deposited data

Results flagged for a closer look

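Cenpe measured 0.697 FPKM in cortex SH replicate 3 and 1.71 to 2.01 FPKM in the other 4 SH cortex libraries, a gap of 0.772 of the group's range. It was the 1 library apart among 74 groups tested, and chance gives about 1 in 20. Cenpe is one of the longest members, and long members were low in this library (median -0.44 for the 12 longest).

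For Ccna2 both EE libraries of cortex replicates 4 and 5 and all 3 EE hippocampus libraries lay on opposite sides of their SH means, with log2 differences of 0.21 in cortex replicates 4 and 5 and -0.11 in hippocampus. The difference between them was not tested. The SH mean in hippocampus was 15.20 FPKM, just above EE replicates 1 and 2 at 15.00 and 15.17 FPKM. These 2 EE values lay above SH replicates 2 and 3 (12.7 and 14.2 FPKM), while SH replicate 1 held 18.7 FPKM.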

How the results depend on the processing

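Between tissues, all 36 members kept a positive difference under every alternative run that tested them. A mean FPKM of at least 5 left 2744 genes and 22 of 22 members passing, SH libraries alone 518 genes and 3 members, and leaving out the hippocampus libraries over 1000 FPKM of Ttr 2131 genes and 16 members. Leaving out 1 library gave 3662 to 5760 genes and 29 to 36 members. For EE against SH in cortex, quantile normalization gave 3 genes, the removed length and GC trend 7, no term for the set of replicates 0, and leaving out 1 library 1 to 3, with 0 members in each. In cortex replicates 1 to 3, leaving out 1 library gave 0 to 12 genes. In replicates 4 and 5 the removed trend gave 2 genes, and leaving out 1 library 23 to 1873 genes, 0 to 9 members and member medians of -0.38 to 0.11. For the difference between cortex sets, the member median was 0.31 at a mean FPKM of at least 5, and leaving out 1 library gave 0 to 3 genes and medians of -0.28 to 0.15. The causes of these changes were not tested. Among named genes 83 calls between tissues were lost and 11 gained over all alternatives, with 0 reversed.

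The labels do not say whether libraries of the same replicate number are related. With a replicate block, 4357 of 13158 genes and 36 members passed between tissues. In cortex replicates 4 and 5 this block gave 766 of 12576 genes and 0 members. The other EE comparisons gave 0 members, with 1 gene in cortex with all 5 replicates and 0 in replicates 1 to 3 and in hippocampus. Each library of cortex replicates 1 to 3 correlated best with its own number across housing (0.07 to 0.39). In hippocampus 1 of 3 did (-0.54 to 0.41). Between tissues 2 of 3 hippocampus libraries did in EE (-0.03 to 0.22) and 2 of 3 in SH (0.02 to 0.28).

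Depth limits the low members most, with 43 reads for Ndc80 in cortex EE replicate 4, and 2 or 3 libraries per group limit the housing comparisons more.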

Other observations

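In cortex replicates 4 and 5, 2 of 117 tested cell cycle genes outside the members passed between EE and SH (1.71%), against 3.46% of all genes. Cdkn2d, an inhibitor of G1 kinases, was higher by 0.82 on the log2(FPKM + 1) scale (limma, adjusted p = 0.00783). Lin54, the MuvB subunit that binds CHR elements, was lower by 0.75 (log2 difference -0.75, limma, adjusted p = 0.0337). With each library's trend on length and GC removed, 0 of 12142 genes passed as higher in this set and 2 as lower. In the same set Ttr had a log2 difference of 2.03 (limma, adjusted p = 3.39e-17), with 689.3 and 28.9 FPKM in the EE and 32.5 and 35.8 FPKM in the SH libraries. That difference rested on EE replicate 4, as EE replicate 5 lay under both SH libraries. As stated above, p-values of this fit do not measure the spread of the single gene, which holds for Cdkn2d, Lin54 and Ttr alike.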
